A study of Mus musculus with 7 samples.

Results

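The hypoxia-inducible factors (HIFs) and the proteins that tie them to oxygen were followed in nucleus pulposus, the soft centre of the discs between the vertebrae, of mice lacking the lactate exporter MCT4. The set was defined by gene symbol alone and held 10 genes: the alpha subunits Hif1a, Epas1 and Hif3a, the partners Arnt and Arnt2, the prolyl hydroxylases Egln1, Egln2 and Egln3, the ubiquitin ligase subunit Vhl and the asparaginyl hydroxylase Hif1an. All 10 were measured, among 19505 genes in the table. Each was read by 1 array feature, so no choice between features was needed.

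RNA from 7 mice was hybridised to Affymetrix microarrays, 1 array per animal. The MCT4KO group held 3 animals, described as 14 months old, that lacked MCT4 in all cells as a global knockout. The WT group held 4 animals, described as 13 months old, with an intact MCT4 gene, so age and genotype cannot be told apart. Per the labels, carriers of 1 MCT4 copy, crossed back to C57Bl/6N over 10 generations, were bred so that both groups came from shared litters, and every sample carries the strain label C57BL/6, while the series design gives C57Bl/6N for the knockouts only. No treatment was given to either group, and nucleus pulposus from the lumbar and caudal discs of 1 animal was pooled into 1 sample.

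HIFs are pairs of an oxygen-regulated alpha subunit and a stable ARNT partner, and they bind short DNA elements to switch on genes for glycolysis, blood vessel growth and pH control. When oxygen is present, the EGLN enzymes (also called PHDs) hydroxylate proline residues of the alpha subunit, VHL binds the modified protein and it is degraded. Hif1an (also called FIH) hydroxylates an asparagine and blocks the contact with coactivators. The disc core has no blood vessels of its own and sits at low oxygen, and its cells are known for steady HIF-1 alpha protein. The control acts mainly on the protein, which these arrays do not measure.

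Some members are also HIF targets in many cell types, with Egln1 and Egln3 as the best known, so the core of the HIF-binding element was looked for in their promoters. RefSeq windows (GRCm38.p6), 250 bases before to 50 after the gene start, were at hand for 9 members, and Epas1 was the exception. ACGTG or GCGTG, read on either strand, stood in the windows of 6 of these 9 members, while 54.1% of all tested genes with a window (8487 of 15691) also held one. ACGTG overlaps its own complement where the letters are CACGTG, as happens once in the Hif1a window and once beside the Egln2 start. ACGTG, with or without GCGTG, stood in 21.4% of all windows of tested genes (4102 of 19143), and Egln2 had another window with GCGTG alone. The stretches shown here hold ACGTG upstream of the start, in Hif1a and the prolyl hydroxylases (the Egln2 match beside the start is not shown). All are written 5′ to 3′ along the gene, with the match in capitals. They lie at chr12:73907779-73907819 (plus strand), chr12:73907715-73907755 (plus strand), chr8:124949300-124949340 (minus strand), chr7:27166828-27166868 (minus strand) and chr12:54204081-54204121 (minus strand).
Hif1a, 70 bases upstream: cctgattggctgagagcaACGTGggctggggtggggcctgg
Hif1a, 134 bases upstream: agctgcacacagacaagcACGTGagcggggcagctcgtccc
Egln1, 68 bases upstream: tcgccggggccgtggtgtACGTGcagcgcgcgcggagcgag
Egln2, 48 bases upstream: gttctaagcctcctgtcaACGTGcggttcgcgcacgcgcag
Egln3, 229 bases upstream: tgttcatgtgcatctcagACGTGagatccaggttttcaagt
Vhl, Arnt2 and Hif1an had no match in their windows, Arnt and Hif3a had GCGTG alone, and a match is a run of letters and not a binding site.

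The deposited log2 values had medians of 6.46 to 6.51 per array over all genes, and array medians of the 5222 negative control features, taken as background, from 5.91 to 6.08. Slc16a3, which encodes MCT4, read 4.47 to 5.02 in MCT4KO animals, all at background, against 13.35 to 13.61 in WT animals, a loss of at least 180-fold (limma adjusted p = 6.7e-09). Of the tissue's markers, Krt19 (17.00 to 17.32), Krt8 (16.52 to 17.09) and Car3 (19.25 to 19.41) were far above background on every array. Of the 12 on that list, 2 (Foxf1 and A2ml1) were at background in both groups, and Pax1 was at background in WT. The 3 Y-linked genes measured read at background in MCT4KO 3 and WT 1 (list means of 4.04 and 3.72) and at list means of 9.69 to 10.06 in the other 5 animals, while the labels do not state the sex of any animal. The 14 neutrophil markers averaged 5.09 to 5.64 in MCT4KO animals and 5.77 to 9.25 in WT animals, with WT 2 (9.25) and WT 1 (7.24) highest. Fits without these pairs of animals were chosen after seeing the data.

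None of the 10 genes passed the test for a difference between MCT4KO and WT. Over the whole table limma called 0.59% of genes (115 of 19505) at an adjusted p under 0.05, and 0 of the 10 members, whose adjusted p ran from 0.49 to 0.88. At an unadjusted p under 0.05 the table gave 12.7% of genes (5.76% higher and 6.90% lower in MCT4KO) and again 0 members in either direction. The groups overlapped for all 10 members, whereas 12.0% of all genes had groups that did not overlap. Estimated changes were 0.10 to 0.34 in size, with a median of 0.20, beside 0.16 over all genes. In bulk tissue, fewer cells of a type and less RNA per cell cannot be told apart.

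**Figure D1:**
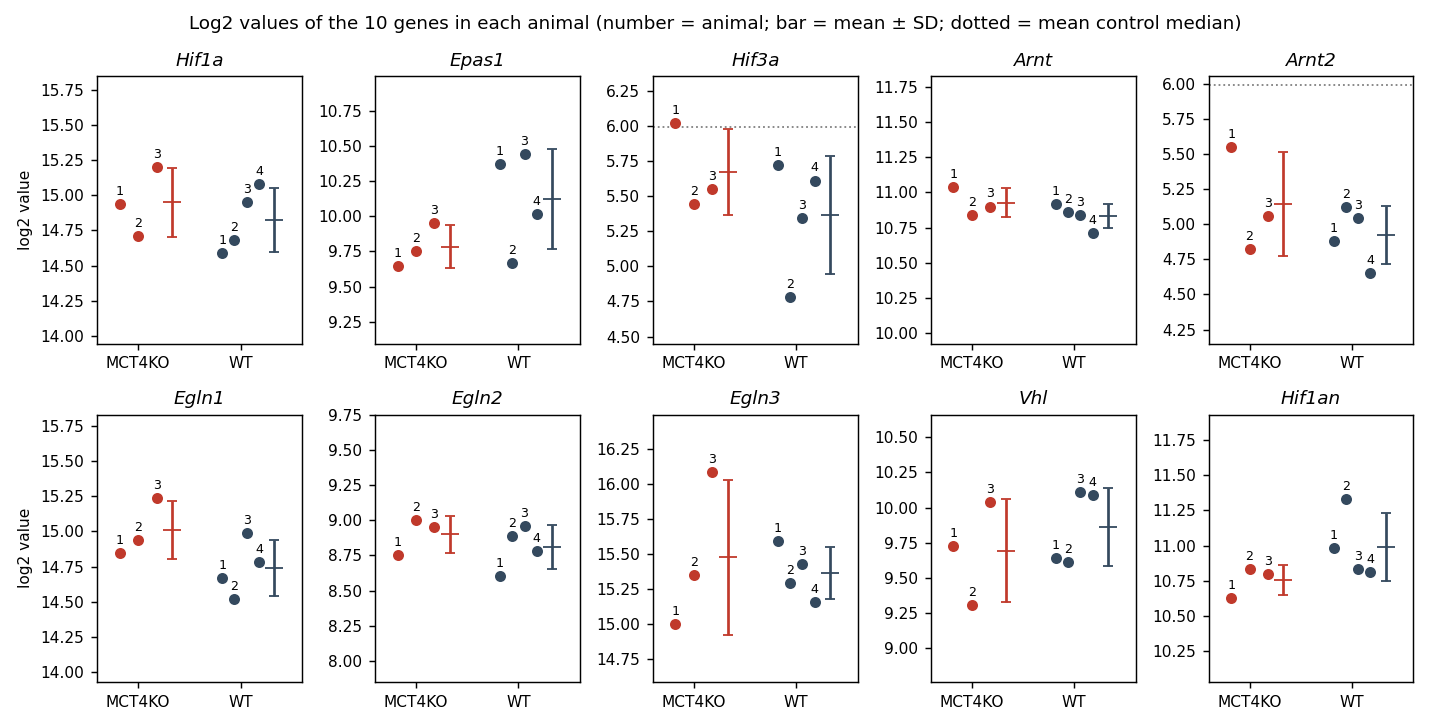
Log2 value (vertical axis, each panel 1.9 units high) of each of the 10 genes in 3 MCT4KO animals (red, left) and 4 WT animals (dark, right), with the animal number above each point and mean ± SD beside them. In every panel the groups overlap, and the Hif3a and Arnt2 points lie at or near the dotted background line or below it.

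Among the alpha subunits, Hif1a, the form that drives the glycolytic response, was far above background in every animal. It read 14.94, 14.71 and 15.20 in MCT4KO 1 to 3, against 14.59, 14.68, 14.95 and 15.08 in WT 1 to 4. MCT4KO 3 and WT 4 were highest and WT 1 lowest, so animals of both groups were interleaved. The means were 14.95 ± 0.245 (SD, n = 3) in MCT4KO and 14.83 ± 0.227 (SD, n = 4) in WT, which differ by 0.13 ± 0.173 on the log2 scale (SE; limma adjusted p = 0.79), with a 95% interval of -0.26 to 0.51. The sign of this small difference rested on few animals: it was -0.06 without WT 1 and WT 2, and -0.08 without MCT4KO 3 and WT 1.

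Epas1 encodes HIF-2 alpha, a form first described in endothelium that drives erythropoietin in kidney and liver. Its log2 values were 9.65, 9.75 and 9.95 in MCT4KO animals, against 10.37, 9.67, 10.44 and 10.02 in WT animals. WT 1, WT 3 and WT 4 lay above every MCT4KO animal, while WT 2 lay among them. The means were 9.78 ± 0.152 (SD, n = 3) in MCT4KO and 10.13 ± 0.358 (SD, n = 4) in WT. The log2 change, the largest estimate among the 10, was -0.34 ± 0.198 (SE; limma adjusted p = 0.49), with a 95% interval of -0.79 to 0.10, or 0.58 to 1.07 as a fold. Without WT 2 it was -0.50 ± 0.168, with an unadjusted p of 0.017 and an adjusted p of 0.35. The endothelial markers gave little signal beside it: of 9 measured, 7 were at background in both groups, including Pecam1 and Cdh5, and the list averaged 5.45 to 5.65 in MCT4KO animals and 5.36 to 5.56 in WT animals. Flt1, a VEGF receptor on that list, did read 10.55 to 11.38.

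Hif3a encodes an alpha subunit with splice forms that can inhibit the other two. It read 6.02, 5.44 and 5.55 in MCT4KO animals, against 5.72, 4.78, 5.34 and 5.61 in WT animals. Of these 7 values, MCT4KO 1 alone lay above its array's control median, by a margin too small to give a fold. Its difference between the group means, 0.31 ± 0.238 (SE; limma adjusted p = 0.61), therefore gives no size of change.

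Of the ARNT partners, Arnt (HIF-1 beta), the common partner of the alpha subunits and of the aryl hydrocarbon receptor, varied least among the 10 genes. It read 11.04, 10.84 and 10.90 in MCT4KO animals, against 10.92, 10.86, 10.84 and 10.71 in WT animals. All 7 animals lay within 0.33 on the log2 scale. The log2 change was 0.10 ± 0.126 (SE; limma adjusted p = 0.78), with a 95% interval of -0.18 to 0.38, the narrowest of the set, and it was 0.16 without WT 1 and WT 2 and 0.14 without MCT4KO 3 and WT 1. Arnt2, the partner known mainly from brain, was at background on all 7 arrays, at 4.82 to 5.55 in MCT4KO animals and 4.65 to 5.12 in WT animals, so that no fold is given.

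The prolyl hydroxylases Egln1 and Egln3 read far above background in every animal. Egln1, also called PHD2 and the main oxygen sensor for HIF-1 alpha, had 14.85, 14.94 and 15.24 in MCT4KO animals, against 14.67, 14.52, 14.99 and 14.78 in WT animals. Only WT 3 reached into the MCT4KO range. The means were 15.01 ± 0.204 (SD, n = 3) in MCT4KO and 14.74 ± 0.199 (SD, n = 4) in WT, which differ by 0.27 ± 0.159 on the log2 scale (SE; limma adjusted p = 0.50), with a 95% interval of -0.09 to 0.63. It was 0.12 without WT 1 and WT 2 and 0.13 without MCT4KO 3 and WT 1, so the estimate moved by over 1.5 times with these animals.

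Egln3 (PHD3), the hydroxylase most strongly induced by hypoxia in many cells, spread more among animals than any other member above background. It read 15.00, 15.35 and 16.08 in MCT4KO animals, against 15.59, 15.29, 15.43 and 15.16 in WT animals. The lowest and the highest of the 7 values were both in MCT4KO animals, 1.08 apart, with the WT animals between them. The SD was 0.553 (n = 3) in MCT4KO and 0.182 (n = 4) in WT, a difference that was not tested. The log2 change was 0.11 ± 0.237 (SE; limma adjusted p = 0.88), with a 95% interval of -0.42 to 0.64, and it turned to -0.19 ± 0.179 without MCT4KO 3 and to -0.12 without MCT4KO 3 and WT 1. Without WT 1 and WT 2 it was 0.18. With a block for the Y-linked signal, chosen after seeing the data, it was 0.06 ± 0.175. MCT4KO 3 and WT 1, each the highest of its group, were the animals with Y-linked genes at background. The part of that split in the spread was not tested.

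Egln2 (PHD1), a nuclear prolyl hydroxylase, read 8.75, 9.0 and 8.95 in MCT4KO animals, against 8.60, 8.89, 8.96 and 8.78 in WT animals. These values lie within 0.41 of one another, and each group holds both high and low animals. The log2 change was 0.10 ± 0.141 (SE; limma adjusted p = 0.81), with a 95% interval of -0.22 to 0.41. This estimate ran from 0.00 to 0.20 over the 19 other settings: it was 0.00 without MCT4KO 3 and WT 1, 0.03 without WT 1, and 0.20 under quantile normalization.

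Vhl, which recognises the hydroxylated alpha subunit, read 9.73, 9.31 and 10.04 in MCT4KO animals, against 9.64, 9.61, 10.11 and 10.09 in WT animals. MCT4KO 3 read close to WT 3 and WT 4, MCT4KO 1 close to WT 1 and WT 2, and MCT4KO 2 was lowest. The log2 change was -0.17 ± 0.206 (SE; limma adjusted p = 0.76), with a 95% interval of -0.63 to 0.29. The estimate depended on the animals: it was 0.02 without MCT4KO 2, -0.41 without WT 1 and WT 2, and -0.42 without MCT4KO 3 and WT 1.

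Hif1an, the asparaginyl hydroxylase, read 10.63, 10.83 and 10.80 in MCT4KO animals, against 10.98, 11.33, 10.83 and 10.81 in WT animals. WT 1 and WT 2 lay above every MCT4KO animal, while WT 3 and WT 4 read like MCT4KO 2 and 3. The log2 change was -0.24 ± 0.158 (SE; limma adjusted p = 0.56), with a 95% interval of -0.59 to 0.12, and it was -0.07 without WT 1 and WT 2, the WT animals with the highest neutrophil markers. The part of those markers in the difference was not tested.

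**Figure D2:**
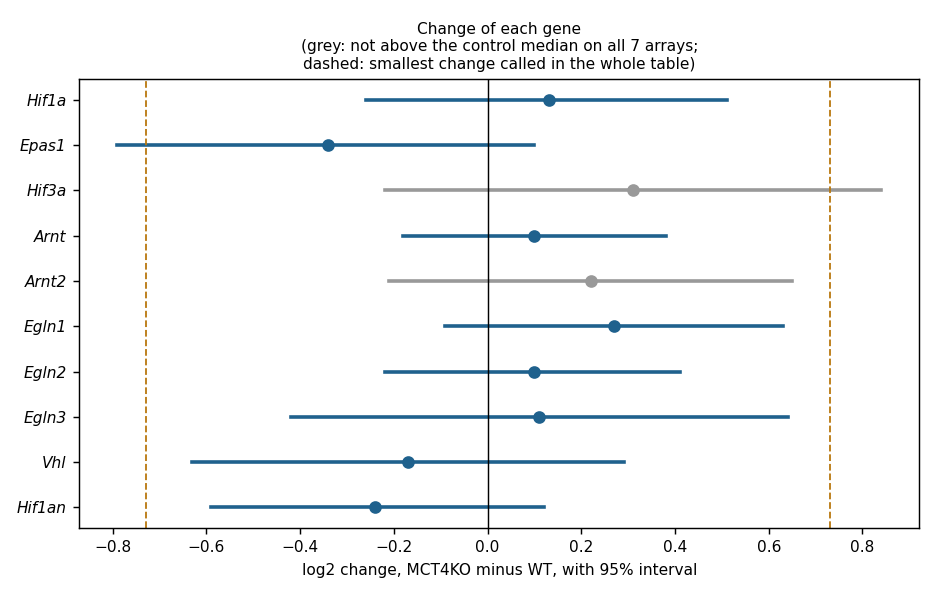
Log2 change, MCT4KO minus WT (horizontal axis), for each gene, with the limma estimate as a point and its 95% interval as a line, grey where a gene was not above the control median on all 7 arrays. Every interval includes 0, and the blue intervals run from -0.79 (Epas1) to 0.64 (Egln3), set against dashed lines at the smallest change called in the whole table, 0.73.

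Because a failed test does not show that levels were alike, the intervals bound what could have been missed. For the 8 members above background on all arrays, they reached at most from -0.79 to 0.64 on the log2 scale, which is 0.58-fold to 1.56-fold on the deposited scale. Each interval is for 1 gene and is not widened for the number of genes. Standard errors of these 8 genes ran from 0.126 (Arnt) to 0.237 (Egln3), around the median of 0.167 over all genes, and 11.7% of genes had one at least as large as that of Egln3. In simulated arrays, noise was drawn separately for each gene, without effects shared by the genes of an animal. There, log2 changes of 1 were called in 55.7% of the altered genes but changes of 0.5 in only 3.96%. At that rate, changes of the size estimated for Epas1 or Egln1 would rarely be called with 7 animals.

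The members did not share 1 profile across animals. Hif1a, Egln1 and Egln3 each read highest in MCT4KO 3, at 0.32, 0.38 and 0.67 above their own mean. Epas1 and Vhl were highest in WT 3 instead, and Hif1an in WT 2. MCT4KO 1 was lowest for Epas1, Egln3 and Hif1an. Of the 7 animals, MCT4KO 1 had the highest and MCT4KO 3 the lowest list mean of annulus and tendon markers (8.79 and 7.65). The same held for hyaline cartilage markers (8.75 and 7.65), and the part of such neighbouring tissue in the profiles was not tested. The members also lie apart in the genome, on chromosomes 3, 6, 7, 8, 12, 17 and 19, and 0 of them lie on chromosome 11, which carries Slc16a3.

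**Figure D3:**
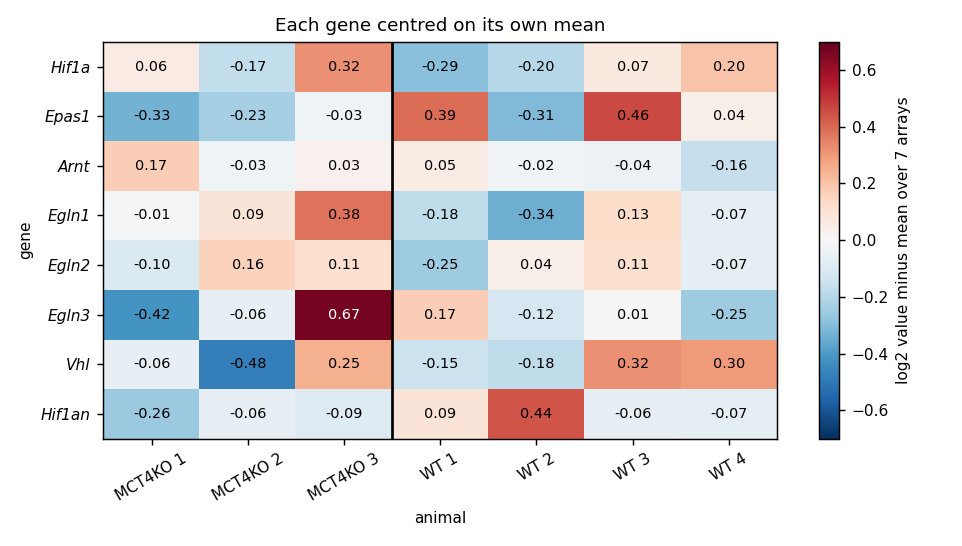
Log2 value of each of the 8 genes above background, minus that gene's mean over the 7 arrays, in MCT4KO animals (left of the line) and WT animals (right), with red above and blue below the mean. MCT4KO 3 stands out for Egln3 at 0.67, MCT4KO 2 for Vhl at -0.48, and no gene has all MCT4KO animals on one side of all WT animals.

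Within-array differences between related genes show whether the balance moved, while their absolute size has no meaning because the genes are read by different probes. Hif1a minus Epas1 was 5.29, 4.97 and 5.25 in MCT4KO animals, against 4.22, 5.01, 4.51 and 5.06 in WT animals. The group means of this log2 difference were 5.17 ± 0.176 (SD, n = 3) in MCT4KO and 4.70 ± 0.406 (SD, n = 4) in WT, so the balance lay 0.47 further toward Hif1a in MCT4KO, with overlapping groups. It ranged from 0.27 to 0.59 over the other settings. Egln3 minus Egln1 was 0.15, 0.41 and 0.84 in MCT4KO animals, against 0.91, 0.78, 0.44 and 0.38 in WT animals, and the groups overlapped. These differences are given as a description, without a test.

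Profiles over the 7 animals like that of a member were sought among 10367 genes with a mean above the control median. Predicted genes and Rik clones were left out of these. The closest genes were found by the root mean square difference between log2 profiles, each centred on its own mean. For Hif1a, whose own profile has a root mean square of 0.208, they were Rap2b (0.0546), Mapk14 (0.064) and Tex10 (0.0672). For Epas1, at 0.30, they were Zfp169 (0.0823), Rtf2 (0.0869) and Zfp664 (0.0917). For Egln3, at 0.323, they were Tmsb10 (0.0704), Nkain4 (0.0749) and Pir (0.0853), which read 5.72 in MCT4KO 1, below that array's control median. None of these 9 genes passed the test, with limma adjusted p from 0.49 to 0.96, and no other member was among them.

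The proteins that act with the members were not called either. Of 98 genes measured in 7 lists around the HIF system, each counted once, limma called 0, against 0.59% of all genes. Among 8 partners of VHL in ubiquitination the median log2 change was 0.00 (0.07 under quantile normalization and -0.10 without MCT4KO 2), and that over all genes was 0.017. Ube2d1, a ubiquitin-conjugating enzyme, read 8.58 to 9.38 in MCT4KO animals and 9.34 to 9.78 in WT animals, an estimated log2 change of -0.60 ± 0.200 (SE), with a limma adjusted p of 0.27. Its relative Ube2d3 read 15.94 to 16.15 in MCT4KO animals and 15.67 to 15.86 in WT animals, at 0.28 ± 0.127 (adjusted p = 0.40), and Nedd8, which activates the ligase, had -0.09 (adjusted p = 0.80).

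The coactivators, chaperones and competitors of HIF gave 10 measured cofactors, none of them called. Of these, 7 had estimates below 0 and 3 above, with a median of -0.07 that was -0.23 without WT 1 and WT 2, and the groups did not overlap for 3 of the 10, beside 12.0% of all genes. Ep300, the acetyltransferase that HIF recruits and that Hif1an keeps away, read 10.83 to 10.87 in MCT4KO animals and 10.93 to 11.32 in WT animals, an estimated log2 change of -0.31 ± 0.141 (SE), with a limma adjusted p of 0.41. Ncoa1, a nuclear receptor coactivator, read 9.30 to 9.37 in MCT4KO animals and 9.56 to 10.15 in WT animals, at -0.46 ± 0.160 (adjusted p = 0.29), and Ncoa2 had -0.27 (adjusted p = 0.46). Among 8 other turnover factors the median was -0.11, and -0.24 without MCT4KO 3 and WT 1. Os9 (-0.30, adjusted p = 0.42), Usp20 (-0.11, adjusted p = 0.74) and Siah1b (-0.13, adjusted p = 0.76) had the smallest p, and Siah1b was at background in MCT4KO.

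Of 20 other oxygen-dependent dioxygenases, 14 had estimates below 0 and 6 above, with a median of -0.09 that was 0.01 under quantile normalization and -0.22 without MCT4KO 3 and WT 1. Kdm4c, a histone demethylase known to assist HIF-1, read 11.18 to 11.35 in MCT4KO animals and 11.47 to 11.95 in WT animals, an estimated log2 change of -0.52 ± 0.148 (SE), with a limma adjusted p of 0.19 and groups that did not overlap. The collagen hydroxylases Plod1 (0.55 ± 0.218, adjusted p = 0.34) and P4ha2 (0.54 ± 0.230, adjusted p = 0.37) had estimates above 0, and P4ha2 lies on chromosome 11 with Slc16a3. The estimate for Plod1 was 0.30 without MCT4KO 3 and 0.81 without MCT4KO 1, and that for P4ha2 was 0.20 ± 0.192 without WT 1 and WT 2. Among 9 enzymes that make or use 2-oxoglutarate, succinate, fumarate or 2-hydroxyglutarate, metabolites that feed or inhibit the hydroxylases, 6 had estimates below 0, and the median was -0.10 (0.00 under quantile normalization, -0.27 without MCT4KO 2, and -0.03 without MCT4KO 1 or without MCT4KO 3). Ogdh, the 2-oxoglutarate dehydrogenase, read 11.90, 12.88 and 12.36 in MCT4KO animals and 12.85 to 13.42 in WT animals, at -0.66 ± 0.233 (adjusted p = 0.29). It too lies on chromosome 11, and distances to Slc16a3 along the chromosome were not examined. Idh1, which makes 2-oxoglutarate in the cytosol, had -0.37 ± 0.140 (adjusted p = 0.32), and D2hgdh, which removes 2-hydroxyglutarate, -0.57 ± 0.312 (adjusted p = 0.48). D2hgdh read 5.89, below the control median, in MCT4KO 1, against 7.35 and 6.75 in MCT4KO 2 and 3, and its estimate was -0.18 ± 0.247 without MCT4KO 1 (limma adjusted p = 0.86). That of Ogdh was -0.42 without MCT4KO 1.

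ARNT belongs to the bHLH-PAS family, whose clock members pair in the same way. Of 10 other members of that family measured, 4 were at background in both groups and 0 were called. Npas2, a partner of BMAL1, read 6.50, 5.80 and 6.25 in MCT4KO animals, against 7.56, 6.66, 7.25 and 8.12 in WT animals. Every WT animal lay above every MCT4KO animal, and the log2 change was -1.22 ± 0.309 (SE; limma adjusted p = 0.14). MCT4KO 2 lay below its array's control median and the other MCT4KO animals not far above theirs, so the size of this difference is uncertain. Clock had -0.30 ± 0.138 (adjusted p = 0.42) and Arntl, which encodes BMAL1, 0.53 ± 0.281 (adjusted p = 0.47). Without WT 1 and WT 2 the Arntl estimate was 0.03 ± 0.179, while those of Clock and Npas2 were -0.38 and -1.50.

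HIF target genes were the list with the highest median change, 0.22 over 38 measured genes. Of the 38, 33 had estimates above 0, a larger share than the 53.0% of all genes, and 0 were called. At an unadjusted limma p under 0.05, 6 of the 38 were higher in MCT4KO, a larger share than the 5.76% of all genes. At that threshold 0 of the 38 were lower, beside 6.90% of all genes. Car9, a carbonic anhydrase at the cell surface that takes part in pH control, read 12.04, 12.13 and 12.36 in MCT4KO animals, against 11.40, 11.50, 11.59 and 11.89 in WT animals, an estimated log2 change of 0.58 ± 0.157 (SE), with a limma adjusted p of 0.17. Higd1a, a mitochondrial protein, had 0.59 ± 0.147 (adjusted p = 0.14), and Ero1a, an oxidase of the endoplasmic reticulum, 0.63 ± 0.166 (adjusted p = 0.16). These 3 were the target genes with groups that did not overlap, 7.89% of the 38, beside 12.0% of all genes. The list mean was 13.20, 13.03 and 13.33 in MCT4KO animals, against 12.71, 12.70, 13.08 and 13.17 in WT animals. WT 1 and WT 2, the low animals here, were also the lowest WT animals for Hif1a, and the median was 0.05 without them and 0.11 without MCT4KO 3 and WT 1. WT 1 and WT 2 also had the highest neutrophil list means (7.24 and 9.25), and the part of those markers in the difference was not tested.

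**Figure D4:**
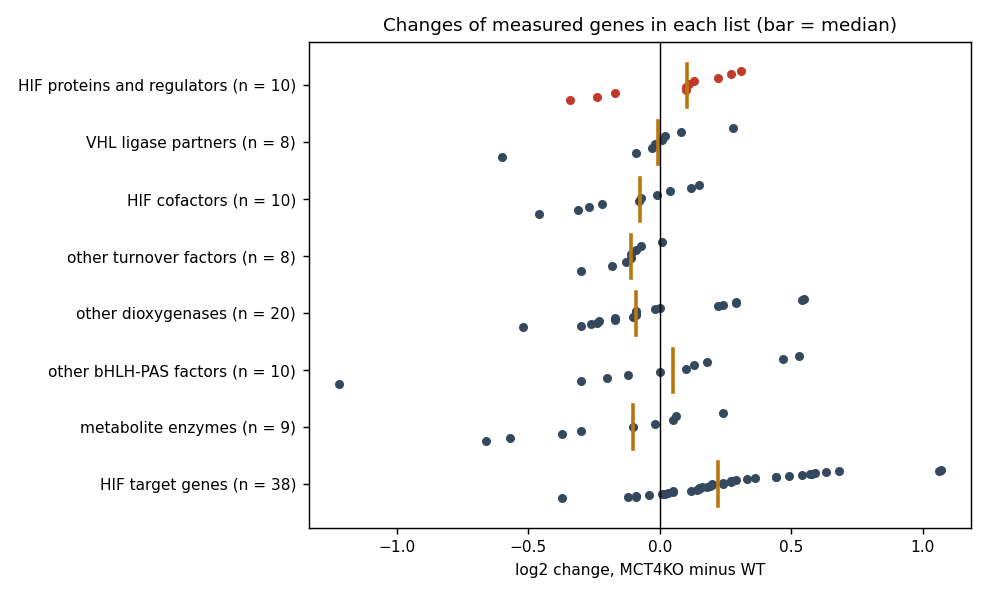
Log2 change, MCT4KO minus WT (horizontal axis), of every measured gene (points) in each list (rows), with the list median as a bar. The 10 HIF proteins and regulators lie between -0.34 and 0.31, and the bar of the HIF target genes stands furthest to the right at 0.22.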

How the data were processed

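Nucleus pulposus RNA of 3 MCT4KO and 4 WT mice was measured on 1 array each. The authors deposited 1 log2 value per feature and array, using Affymetrix Expression Console, version 1.4.1, according to the submitters' processing notes. How signals were background-corrected, normalized and summarised was not stated in the labels or notes used here. The log2 scale was inferred from the values, which reach above what a scanner reading can give, so folds are on the deposited scale. No further normalization was applied.

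Of 28846 features, 19572 had 1 gene symbol in the platform annotation, 0 had several and 2634 transcript clusters had none here. All 19572 matched a RefSeq gene identifier (GRCm38.p6, used for names and chromosomes). The feature with the highest mean was taken for each of 19505 genes. A group was at background where each array read at or below the median of its negative controls. A bound on a fold was set against these medians. Arrays carry no read depth, and precision depends on how many animals there are and on how much each gene varies among them.

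The contrast of MCT4KO with WT was fitted to every gene with limma 3.58.1 in R 4.3.3 (lmFit, then eBayes), with 5 residual and 4.66 prior degrees of freedom and no covariate. Two-sided p-values received a Benjamini-Hochberg adjustment across the whole table. Calls needed an adjusted p under 0.05. Tested on simulated data (20 runs of 19505 genes, 200 of them altered), the fit called 94.0% of genes with a log2 change of 2, and 4.59% of what it called had not been altered. The simulated noise was independent between genes, so these shares need not hold for the real arrays, where animals can differ in many genes at once.

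The members and lists were chosen with earlier results of these data known, so no p is adjusted over them alone. The rule named every member, Slc16a3, in each list the called genes and up to 3 others of smallest p, and the 3 genes with the profile most like Hif1a, Epas1 and Egln3. List genes that the annotation does not name were left out. Alternatives were other normalizations, filters, variance models and backgrounds, averaging of features, the animal number as a block and leaving out animals. No 2 arrays were identical. Same-numbered animals of the 2 groups are not stated to be pairs.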

Additional observations from a re-analysis of the deposited data

Results flagged for a closer look

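Of 32 genes examined, the 10 members, Slc16a3 and the named list genes, 1 had a WT animal far from the others. Nedd8, which modifies and activates the VHL ligase, read 10.10 in WT 2, with WT 1, WT 3 and WT 4 at 10.30 to 10.33, a gap of 0.87 of the WT range. A gap like this can arise by chance, the more so when 32 genes are examined, and its cause was not tested. No member had such an animal among the WT animals, and the MCT4KO group, with 3 animals, was not examined in this way.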

How the results depend on the processing

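The count of members called was 0 in all 19 other settings, and at an unadjusted p under 0.05 it was 0 in each except without WT 2, where it was 1 (Epas1). The count over all genes, 115, was 15 to 64 with 1 animal left out, lowest without MCT4KO 3 and highest without MCT4KO 2. It was 26 with values raised to the control medians and 6 with the replicate block. It was 16 without WT 1 and WT 2 and 17 without MCT4KO 3 and WT 1, both chosen after seeing the data, as was a block for the Y-linked signal (114). The cause of these moves was not tested. The sign of Hif1a turned without WT 1 and WT 2 (-0.06) and without MCT4KO 3 and WT 1 (-0.08). That of Egln3 turned without MCT4KO 3 (-0.19) and without MCT4KO 3 and WT 1 (-0.12), that of Vhl without MCT4KO 2 (0.02), and that of Arnt2, a gene at background, with values raised to the control medians (-0.01). Epas1 (-0.50 to -0.24), Egln1 (0.12 to 0.35), Arnt (0.04 to 0.20) and Hif1an (-0.29 to -0.07) kept their sign in all 19. Whether animal numbers pair the samples could not be decided. Deviations of same-numbered animals correlated at -0.127 to 0.05 over genes, beside -0.117 to 0.12 for animals of other numbers, and the same-numbered pairs are few. The replicate block changed no member's call or sign. WT 4 has no same-numbered MCT4KO animal, so the block's estimates for the members equalled those without WT 4. With 1 animal left out, Egln3 ran from -0.19 to 0.35 and Vhl from -0.34 to 0.02. The dim filters left out Hif3a and Arnt2.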
